A study of Mus musculus with 16 samples.

Results

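The acute phase proteins are plasma proteins that the liver makes in changed amounts during inflammation or injury. The 10 genes described here are Saa1, Saa2, Saa3, Lcn2, Orm1, Orm2, Hp, Hpx, Crp and Apcs, taken by symbol from a table of 23420 genes, and all 10 were found and passed the filter on low counts in every comparison. Liver RNA was sequenced from 16 male wild-type C57BL/6J mice in 4 groups of 4. All mice ate a high-fat diet (HFD), labelled 45%. The FEN-HFD groups also received 0.04% fenretinide, a synthetic retinoid, in that diet. The groups were FEN-HFD for 20 weeks (mice 21, 22, 24 and 29), HFD for 20 weeks (mice 25, 28, 33 and 45), FEN-HFD for 7 days (mice 61, 62, 65 and 66) and HFD for 7 days (mice 142, 143, 144 and 146). The mice of the 2 durations were separate, so duration, age and cohort cannot be told apart. The age of the mice is not given in the sources used here.

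Acute phase genes of hepatocytes respond to cytokines. Interleukin 6 signals through its receptor and JAK kinases to the transcription factor STAT3, interleukin 1 and TNF signal to NF-kB, and factors of the C/EBP family bind many of the promoters. Products made in larger amounts are called positive acute phase proteins, and those made in smaller amounts, such as albumin and transthyretin, are called negative. In mice the serum amyloids A1 and A2 and the pentraxin serum amyloid P (Apcs) are strong responders, whereas C-reactive protein (Crp), the classic marker in people, responds little.

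The libraries held between 19218230 and 32546829 counts. Levels are given as CPM, each count relative to the scaled total of its library, with totals scaled by 1 set of TMM factors over the 16 libraries. FEN-HFD mouse 29 at 20 weeks stood apart, with 53.1% of its counts in Rn45s, the ribosomal RNA precursor, against 0.466% to 1.46% in the other 15 libraries. Marker genes of macrophages and neutrophils also set 2 mice apart. The summed level of 15 Kupffer cell and macrophage markers was 1697 CPM in mouse 29 and 1505 CPM in HFD mouse 143 at 7 days, against 571 to 958 CPM in the other 14 mice, and no marker of the list was at 0 in any mouse. Neutrophil markers, 11 genes, summed to 30.3 CPM in mouse 29 and 12.2 CPM in mouse 143, against 3.84 to 10.1 CPM in the other 14. Of these, the granule enzyme gene Elane had 0 counts in mouse 29 and between 0 and 5 counts in every other mouse. Hepatocyte markers summed to 66652 CPM in mouse 29 and 67196 CPM in mouse 143, within the 54486 to 83451 CPM of the other mice. Cholangiocyte markers, 6 genes, set HFD mouse 28 at 20 weeks apart, with a sum of 159 CPM. The next highest sum was 97.4 CPM, in mouse 29. A sum does not show which of the 6 genes raised it, and the part of cholangiocytes in it was not tested. The comparisons of the members are also given without mice 29 and 143. In bulk liver, fewer cells of a type and less RNA per cell cannot be told apart.

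The promoters of the members were compared first. RefSeq's promoter table for GRCm38.p6 matched 8 of the 10 members, all but Orm1 and Hp, and the 250 bases before each start were searched on both strands. The C/EBP motif TTGCNNAA was present in Saa1, Saa2, Saa3, Lcn2, Orm2 and Hpx, 6 of the 8, whereas 9.56% of 32851 mouse promoters of the same length hold it. The STAT motif TTCNNNGAA was present in Apcs only, where 7.02% of all promoters hold it, and the 10-base NF-kB consensus in none of the 8, where 7.25% hold it. No motif of 1 kind overlapped another. Crp held none of the 3. A match describes letters and does not show that a factor binds. No relation between motifs and the levels or their spread was tested. The promoters of the 4 members that varied most and of Crp, the member that varied least, are printed 5′ to 3′ on the strand of the gene, with the C/EBP motif in capitals.
Saa1: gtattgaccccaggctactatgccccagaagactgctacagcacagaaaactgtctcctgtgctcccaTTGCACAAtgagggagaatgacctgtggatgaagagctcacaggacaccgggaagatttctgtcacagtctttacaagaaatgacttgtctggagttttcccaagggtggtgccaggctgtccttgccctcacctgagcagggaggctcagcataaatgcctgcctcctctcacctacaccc
Saa2: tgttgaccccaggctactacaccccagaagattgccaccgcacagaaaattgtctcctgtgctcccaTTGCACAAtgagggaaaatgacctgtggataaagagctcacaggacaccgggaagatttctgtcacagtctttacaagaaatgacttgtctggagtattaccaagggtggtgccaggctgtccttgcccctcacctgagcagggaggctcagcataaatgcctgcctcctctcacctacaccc
Lcn2: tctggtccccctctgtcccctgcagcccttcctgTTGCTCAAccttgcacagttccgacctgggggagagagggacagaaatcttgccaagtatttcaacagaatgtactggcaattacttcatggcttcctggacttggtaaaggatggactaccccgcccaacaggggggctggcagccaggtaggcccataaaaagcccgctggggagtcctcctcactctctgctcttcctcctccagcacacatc
Orm2: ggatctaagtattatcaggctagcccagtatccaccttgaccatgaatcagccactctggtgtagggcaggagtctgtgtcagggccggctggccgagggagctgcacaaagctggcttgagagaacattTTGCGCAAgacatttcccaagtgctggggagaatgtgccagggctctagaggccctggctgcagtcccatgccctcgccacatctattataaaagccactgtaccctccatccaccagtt
Crp: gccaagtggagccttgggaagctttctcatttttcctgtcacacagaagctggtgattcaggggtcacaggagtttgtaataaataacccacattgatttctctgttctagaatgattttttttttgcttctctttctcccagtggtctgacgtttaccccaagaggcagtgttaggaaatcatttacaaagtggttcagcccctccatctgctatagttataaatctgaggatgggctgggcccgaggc
The Saa1 promoter (chr7:46742981-46743230, minus strand) and the Saa2 promoter (chr7:46751583-46751832, plus strand) face away from each other on chromosome 7. Their sequences were 94.8% identical, with 11 mismatches and 2 gap positions, and both carry TTGCACAA, 182 bases before the start in Saa1 and 183 bases before it in Saa2. The Lcn2 promoter (chr2:32387740-32387989, minus strand) carries TTGCTCAA at 216 bases before the start. In Orm2 (chr4:63362199-63362448, plus strand) TTGCGCAA stands 120 bases before it. The Crp promoter lies at chr1:172697806-172698055 on the plus strand. Saa3, in the same cluster as Saa1, shared only 48.9% of aligned positions with the Saa1 promoter and has its C/EBP motif on the other strand, 99 bases before the start.

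The 10 genes lie in few places of the mm10 genome (GENCODE M21 coordinates). Saa3 (chr7:46711998-46715700), Saa1 (chr7:46740497-46742980) and Saa2 (chr7:46751790-46754313) form a cluster on chromosome 7, which also holds Hpx (chr7:105591613-105600137). Orm1 (chr4:63344560-63348163) and Orm2 (chr4:63362449-63365878) flank Orm3 on chromosome 4. Crp and Apcs are neighbours on chromosome 1, Apcs at chr1:172893961-172895041 and Crp at chr1:172698055-172833031, a span that overlaps the pseudogene Gm38051. Lcn2 is at chr2:32384633-32388252 and Hp at chr8:109575128-109579172. Saa1 and Saa2 are near-identical copies and the Orm genes are close paralogs, so their counts are uncertain where reads could be shared. RefSeq lists each of the names Saa1 and Saa2 as a synonym of the other, so which copy a count belongs to depends on the annotation release, which is not given in the sources used here.

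Per kilobase of transcript, the mean level over the 16 mice ran from 3259 CPM per kb for Hpx, 2306 for Hp and 695 for Orm1, through 298 for Saa1, 119 for Saa2, 87.9 for Crp and 55.0 for Apcs, to 25.2 for Orm2, 16.9 for Lcn2 and 12.7 for Saa3. Of neighbours in this order, the mice did not overlap between Hp and Orm1, overlapped between Orm1 and Saa1 through mouse 29 only, and overlapped for all the others. The genes also differed in how steady they were between mice. The highest mouse had 52.4 times the level of the lowest for Lcn2, 46.0 times for Saa2, 44.8 times for Saa1 and 23.1 times for Orm2. The same quotient was 7.95 for Saa3, 4.40 for Apcs, 3.62 for Hp, 3.33 for Hpx, 2.74 for Orm1 and 1.53 for Crp. Mouse 29 had the highest level of 9 of the 10 genes, all but Crp. Without it the quotient was 13.6 for Lcn2, 9.50 for Saa1, 7.34 for Orm2, 6.60 for Saa3 and 5.59 for Saa2, and the other 5 genes stayed at or below 2.44.

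**Figure D1:**
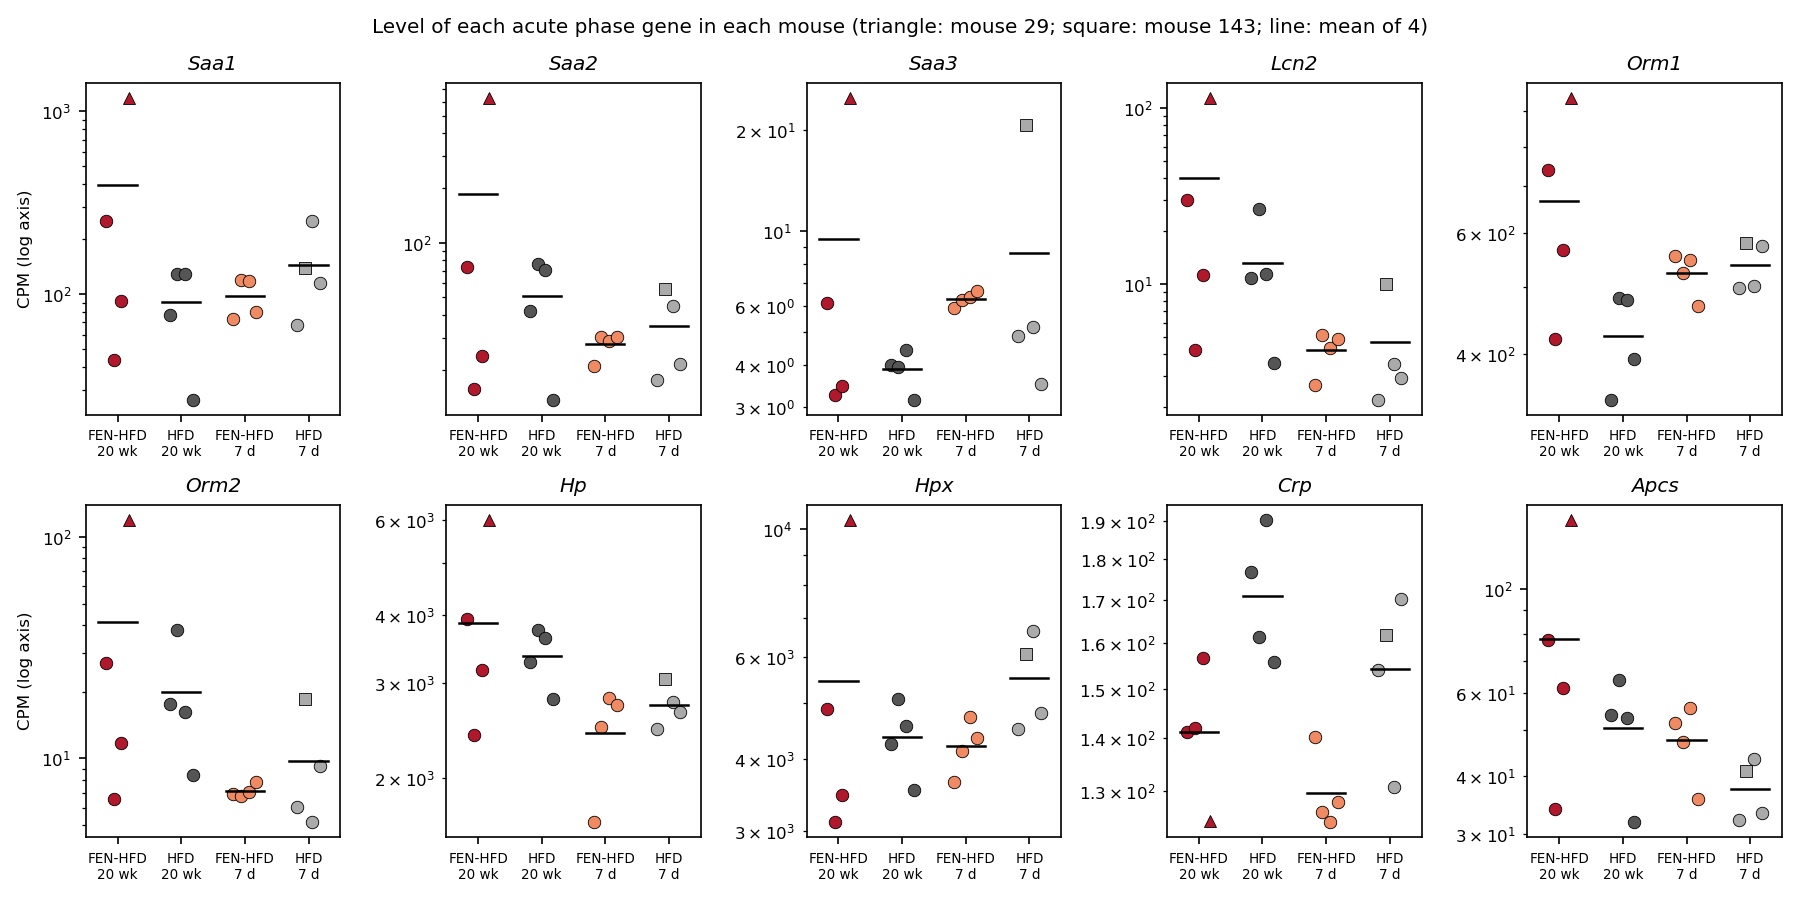
Level of each acute phase gene in CPM (log axis) in each mouse of the 4 groups, with a line at the mean of 4 mice, a triangle for mouse 29 and a square for mouse 143. Mouse 29 lies above every other mouse for 9 genes, while Crp stays between 124 and 190 CPM.

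The serum amyloids A1 and A2 are apolipoproteins of high-density lipoprotein that hepatocytes release in large amounts during inflammation. In livers of mice given FEN-HFD for 20 weeks, Saa1 had 251, 43.9, 91.3 and 1188 CPM, against 76.7, 130, 129 and 26.5 CPM in HFD livers. At 7 days it had 73.1, 119, 118 and 80.3 CPM in FEN-HFD livers, against 68.2, 139, 252 and 115 CPM in HFD livers. The groups overlapped at both durations, and the 20-week FEN-HFD group held both a mouse at 43.9 CPM and the highest mouse of the study. Saa2 had 73.3, 15.7, 24.0 and 631 CPM in FEN-HFD livers at 20 weeks, against 42.2, 76.6, 71.3 and 13.7 CPM in HFD livers. At 7 days its levels were 21.1, 30.4, 28.7 and 30.4 CPM in FEN-HFD livers, against 17.5, 55.9, 44.8 and 21.5 CPM in HFD livers. Of the 4 FEN-HFD mice at 20 weeks, 2 were below 3 of the 4 HFD mice in Saa2.

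Saa3, which in mice is also made by macrophages and fat cells, was low in nearly all livers. It had 6.14, 3.25, 3.47 and 25.1 CPM in FEN-HFD livers at 20 weeks, against 3.998, 3.94, 4.42 and 3.15 CPM in HFD livers. At 7 days the FEN-HFD livers had 5.91, 6.25, 6.38 and 6.63 CPM, against 4.89, 20.8, 5.19 and 3.503 CPM in HFD livers. The 2 mice with over 20 CPM, mouse 29 and mouse 143, were the same mice that had the highest sums of macrophage markers, and the other 14 mice stayed between 3.15 and 6.63 CPM. The part of macrophages in the Saa3 level was not tested.

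Lcn2 encodes lipocalin 2, which withholds iron from bacteria by binding their siderophores. Its levels were 29.9, 4.23, 11.2 and 115 CPM in FEN-HFD livers at 20 weeks, against 10.8, 26.6, 11.4 and 3.55 CPM in HFD livers. At 7 days they were 2.66, 5.09, 4.30 and 4.85 CPM in FEN-HFD livers, against 2.19, 9.95, 3.51 and 2.91 CPM in HFD livers. All 4 FEN-HFD mice at 7 days lay below 3 of the 4 mice of each 20-week group.

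The orosomucoids are acid glycoproteins of plasma that carry small molecules. Orm1, the abundant copy, had 739, 420, 565 and 942 CPM in FEN-HFD livers at 20 weeks, against 343, 482, 480 and 393 CPM in HFD livers, so that 3 of the 4 FEN-HFD mice were above all HFD mice. At 7 days it had 554, 524, 548 and 470 CPM in FEN-HFD livers, against 499, 580, 501 and 573 CPM in HFD livers. All 4 HFD mice at 20 weeks were below all 4 HFD mice at 7 days. Orm2 had 26.9, 6.57, 11.8 and 119 CPM in FEN-HFD livers at 20 weeks, against 17.6, 37.9, 16.2 and 8.40 CPM in HFD livers. Its 7-day levels were 6.91, 6.77, 7.03 and 7.85 CPM in FEN-HFD livers, against 6.02, 18.6, 5.16 and 9.23 CPM in HFD livers. The 4 FEN-HFD mice at 7 days were close together, with a coefficient of variation of 6.77%, against 63.2% in HFD livers at 7 days.

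Hp encodes haptoglobin, which binds free haemoglobin, and Hpx encodes hemopexin, which binds free haem. Hp had 3936, 2405, 3169 and 6004 CPM in FEN-HFD livers at 20 weeks, against 3285, 3765, 3627 and 2808 CPM in HFD livers. At 7 days there were 1658, 2483, 2815 and 2730 CPM in FEN-HFD livers, against 2461, 3050, 2770 and 2657 CPM in HFD livers. FEN-HFD mouse 61 had the lowest Hp level of all 16 mice, and the groups overlapped at both durations. Hpx had 4885, 3112, 3461 and 10353 CPM in FEN-HFD livers at 20 weeks, against 4244, 5088, 4570 and 3542 CPM in HFD livers. At 7 days there were 3646, 4136, 4737 and 4345 CPM in FEN-HFD livers, against 4508, 6071, 6668 and 4803 CPM in HFD livers. At 7 days 3 of the 4 FEN-HFD mice were below all HFD mice in Hpx.

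The pentraxins Crp and Apcs are ring-shaped proteins that bind ligands exposed on damaged cells and microbes. Crp had 141, 142, 157 and 125 CPM in FEN-HFD livers at 20 weeks, against 177, 161, 190 and 156 CPM in HFD livers. At 7 days it had 140, 126, 124 and 128 CPM in FEN-HFD livers, against 154, 162, 131 and 170 CPM in HFD livers. In each duration 3 of the 4 FEN-HFD mice were below all 4 HFD mice. Crp is the only member whose 20-week level was lowest in mouse 29. Apcs had 77.8, 33.9, 61.3 and 140 CPM in FEN-HFD livers at 20 weeks, against 53.9, 63.8, 53.0 and 31.8 CPM in HFD livers. At 7 days there were 51.8, 47.0, 55.6 and 35.7 CPM in FEN-HFD livers, against 32.1, 41.0, 43.3 and 33.2 CPM in HFD livers, so that 3 of the 4 FEN-HFD mice were above all HFD mice.

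The question of whether fenretinide altered these genes after 20 weeks of diet was addressed by comparing FEN-HFD with HFD livers. None of the 10 members passed an adjusted p of 0.05 in edgeR's quasi-likelihood test over 13010 genes, of which 0.769% were called higher and 1.09% lower. None passed by DESeq2 or limma-voom either. At an unadjusted p under 0.05, edgeR gave 1 member higher (Orm1) and 1 lower (Crp), where 8.50% of all genes were higher and 10% lower. The groups overlapped for all 10 members, whereas they did not overlap for 12.8% of all genes. The estimates were nevertheless large and imprecise. The log2 fold change of Saa1 was estimated at 2.12 (standard error, SE, 1.02, 95% interval -0.23 to 4.47, edgeR adjusted p = 0.317). For Saa2 it was 1.86 (SE 1.17, edgeR adjusted p = 0.439) and for Lcn2 1.56 (SE 0.99, edgeR adjusted p = 0.441). Saa3 (1.23), Orm2 (0.99), Orm1 (0.65), Apcs (0.62), Hpx (0.32) and Hp (0.20) were also above 0, and the median of the 10 was 0.82, against 0.01 over all genes. Orm1 had a 95% interval of 0.13 to 1.18 (edgeR adjusted p = 0.182), and Crp had a log2 fold change of -0.28 with an interval of -0.51 to -0.05 (edgeR adjusted p = 0.193).

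These estimates rested on mouse 29. Without it the log2 fold changes were 0.51 for Saa1, 0.20 for Lcn2, 0.15 for Saa3 and 0.19 for Apcs, and they were below 0 for Saa2 (-0.43), Orm2 (-0.40), Hpx (-0.19) and Hp (-0.09). Only 5 of the 10 were then above 0, and their median was 0.03. The mean level of Saa1 in FEN-HFD livers was 394 ± 537 CPM (SD, n = 4) with mouse 29 and 129 ± 109 CPM (SD, n = 3) without it, against 90.5 ± 49.4 CPM (SD, n = 4) in HFD livers. Orm1 and Crp changed less, to 0.44 and -0.22, and neither passed. Then 1 member was higher (Orm1) and 0 lower at an unadjusted p under 0.05, where 10.3% of all genes were higher and 12.1% lower.

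**Figure D2:**
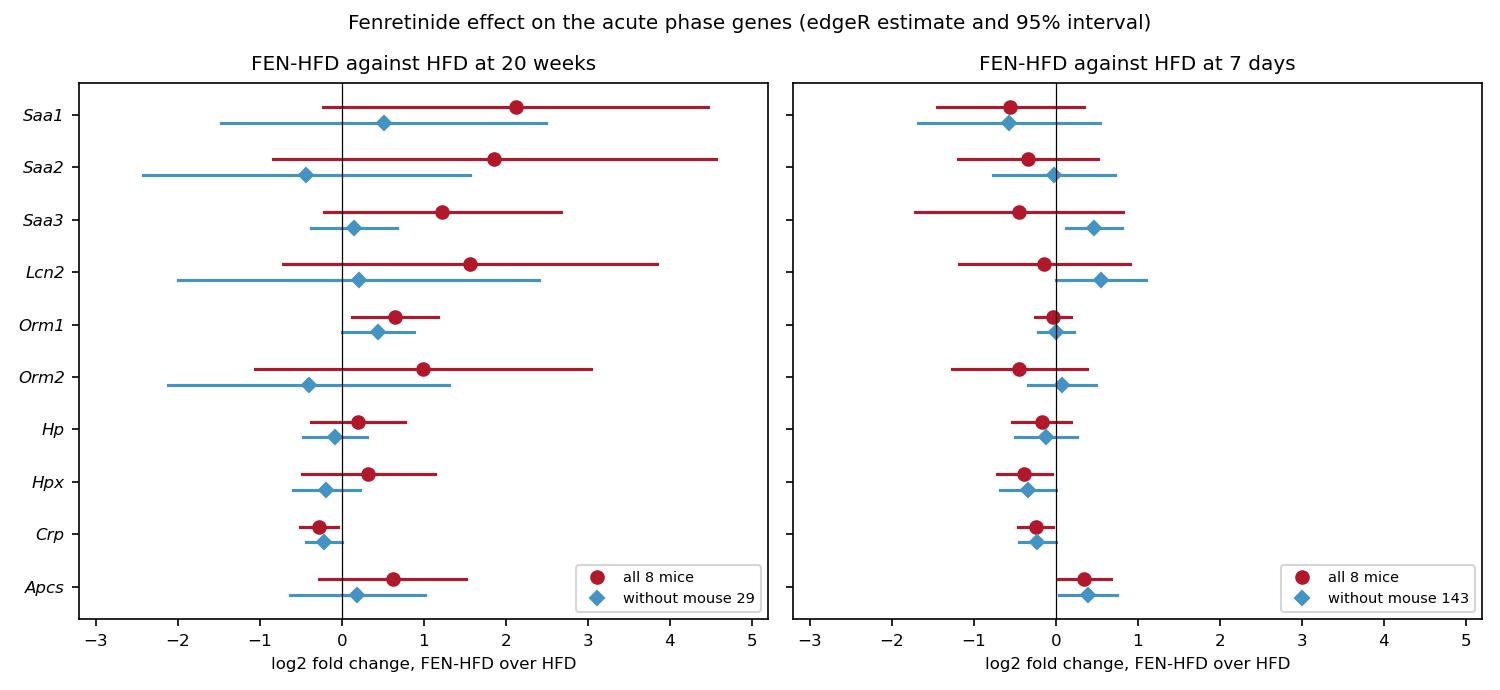
Log2 fold change of FEN-HFD over HFD for each member at 20 weeks (left) and 7 days (right), with 95% intervals from edgeR, for all 8 mice (circles) and without the mouse that stood apart (diamonds). At 20 weeks the estimates for Saa2, Orm2, Hp and Hpx fall below 0 once mouse 29 is left out.

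At 7 days, 0 of the 10 members were called by edgeR, DESeq2 or limma-voom, and of 13157 genes edgeR called 0.0988% higher and 0% lower. At an unadjusted p under 0.05, edgeR gave Apcs as higher and Crp and Hpx as lower, where 2.63% of all genes were higher and 2.45% lower. Without HFD mouse 143 these counts turned to 3 members higher (Saa3, Lcn2 and Apcs) and 0 lower, where 4.1% of all genes were higher and 2.88% lower, and 0 were called by edgeR. For all 10 members the groups overlapped, against no overlap for 3.19% of all genes. The estimate for Apcs was 0.35 (95% interval 0.03 to 0.67, edgeR adjusted p = 0.945), that for Hpx -0.38 (95% interval -0.72 to -0.05, adjusted p = 0.878) and that for Crp -0.24 (95% interval -0.46 to -0.03, adjusted p = 0.877). The estimates for Saa1 (-0.55), Saa3 (-0.45), Orm2 (-0.45), Saa2 (-0.33), Hp (-0.17), Lcn2 (-0.14) and Orm1 (-0.03) were below 0, and the median of the 10 was -0.29, against -0.01 over all genes. Without HFD mouse 143, Saa3 (0.47), Lcn2 (0.55) and Orm2 (0.08) turned to above 0, and Orm1 to just above it. The median of the 10 was then -0.0086, with 5 of 10 above 0. Crp in FEN-HFD livers was thus estimated at 0.826 times the HFD level at 20 weeks and at 0.844 times at 7 days, in separate mice, with adjusted p-values above 0.05 in both comparisons, and without mouse 143 its 7-day log2 fold change was -0.22.

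The difference between the fenretinide effects at 20 weeks and at 7 days was tested in a fit of all 16 libraries. No member passed by edgeR, DESeq2 or limma-voom, and of 13387 genes edgeR called 0.00747% higher and 0.0224% lower. At an unadjusted p under 0.05, Saa1 and Orm1 were higher, where 3.95% of all genes were higher and 4.73% lower. The difference was 2.67 on the log2 scale for Saa1 (SE 1.15, edgeR adjusted p = 0.540) and 0.69 for Orm1 (SE 0.26, edgeR adjusted p = 0.464). Without mouse 29, Orm1 was the only member higher at that p, where 3.92% of all genes were higher. Without mice 29 and 143 the differences were 1.08 for Saa1 and 0.43 for Orm1, while Saa2 (-0.42), Orm2 (-0.49), Lcn2 (-0.35) and Saa3 (-0.33) were below 0.

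Duration of the diet was compared within each diet. In HFD livers, at 20 weeks against 7 days, edgeR called 0 of the 10 members, where it called 4.78% of 13255 genes higher and 2.73% lower. DESeq2 and limma-voom called none. At an unadjusted p under 0.05, only Orm1 was lower by edgeR, with 13.3% of all genes higher and 12.2% lower. Without mouse 143, 3 members were higher at that p (Lcn2, Orm2 and Hp) and 1 lower (Orm1), where 13.3% of all genes were higher and 11.8% lower. Orm1 was also the only member whose groups did not overlap, which was so for 17% of all genes. It averaged 425 ± 68.1 CPM (SD, n = 4) at 20 weeks and 538 ± 44.1 CPM (SD, n = 4) at 7 days. The estimate for Orm1 was -0.36 on the log2 scale (SE 0.13, edgeR adjusted p = 0.126). Estimates were above 0 for Lcn2 (1.48), Orm2 (1.03), Saa2 (0.53), Apcs (0.42), Hp (0.29) and Crp (0.14) and below 0 for Saa3 (-1.17), Saa1 (-0.68) and Hpx (-0.35), with adjusted p-values between 0.203 and 0.608 from edgeR. Without mouse 143 the estimates were -0.24 for Saa3, 2.19 for Lcn2, 1.56 for Orm2 and 0.86 for Saa2, and none passed. Without HFD mouse 45 at 20 weeks, whose levels of Saa1, Saa2, Saa3 and Apcs were the lowest of all 16 mice, Apcs passed at 0.60 (edgeR adjusted p = 0.0289).

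In FEN-HFD livers, at 20 weeks against 7 days, all 10 estimates were above 0 and 0 members were called by edgeR, against 0.849% of 12949 genes called higher and 0.332% lower. At an unadjusted p under 0.05, Lcn2, Saa2, Orm2 and Hp were higher by edgeR, 4 of 10, where 6.03% of all genes were higher and 3.63% lower. Without mouse 29 the count was 2 higher (Lcn2 and Orm2) and 1 lower (Saa3), where 7.86% of all genes were higher and 8.04% lower. The groups overlapped for all 10 members, with no overlap for 6.55% of all genes. Lcn2 averaged 40.04 ± 51.1 CPM (SD, n = 4) at 20 weeks and 4.23 ± 1.10 CPM (SD, n = 4) at 7 days. The Lcn2 estimate was 3.20 on the log2 scale (SE 0.98, edgeR adjusted p = 0.272), and DESeq2 called it higher (3.22, adjusted p = 0.0239). DESeq2 called 412 genes in either direction there, which is 3.18% of the 12949 genes that edgeR tested. Lcn2 was its only call of a member in the 5 comparisons. Limma-voom called none. Estimates on the same scale were 2.48 for Orm2 (edgeR adjusted p = 0.381), 2.73 for Saa2 (edgeR adjusted p = 0.510) and 0.67 for Hp (edgeR adjusted p = 0.438). Without mouse 29 the log2 fold changes were 1.84 for Lcn2, 1.07 for Orm2, 0.44 for Saa2 and 0.38 for Hp, and those of Saa3 (-0.56) and Hpx (-0.16) were below 0. The comparisons share groups, so they are not separate evidence. Of 7 listed adipocyte markers, 3 were tested (Cidec, Cfd and Fabp4), and all 3 rose at 20 weeks against 7 days in both diets. Adipoq, Plin1, Lep and Retn had too few counts to be tested. Adipoq and Plin1 were at 0 CPM in every FEN-HFD liver at 20 weeks. In HFD livers at 20 weeks the highest levels were 3.19 CPM for Adipoq, 2.46 for Plin1, 1.70 for Lep and 0.53 for Retn. The medians there were 0.04, 0.03, 0.03 and 0 CPM. HFD mouse 45 at 20 weeks was the only mouse with counts of all 7 adipocyte markers. Without mouse 143, Cfd missed the threshold in HFD livers (edgeR adjusted p = 0.0520). In HFD livers 3 of 9 hepatocyte markers fell (Cps1, Apoa1 and Serpina1a), and 3 of 15 macrophage markers were called, Gpnmb higher and Vsig4 and Clec4f lower. Of all genes, 4.78% were called higher and 2.73% lower in that comparison. Without mouse 143 Gpnmb missed the threshold (edgeR adjusted p = 0.0845) and Csf1r was called lower. In FEN-HFD livers 1 of 9 hepatocyte markers fell (Cps1) and 1 of 14 macrophage markers rose (Marco), and without mouse 29 Serpina1a, Ccr2 and Ly6c2 were also called lower. Whether the number of any cell type changed was not tested, nor its part in the levels of the members.

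The balance of the near-identical copies Saa1 and Saa2 was examined next, and no difference between groups passed after adjustment. The ratio of Saa1 to Saa2 counts was 3.43, 2.80, 3.81 and 1.88 in FEN-HFD livers at 20 weeks, against 1.82, 1.69, 1.81 and 1.94 in HFD livers. At 7 days it was 3.47, 3.91, 4.12 and 2.64 in FEN-HFD livers, against 3.89, 2.49, 5.62 and 5.34 in HFD livers. The 4 HFD mice at 20 weeks lay in a narrow range below all 8 mice at 7 days, while their summed Saa1 and Saa2 level varied from 40.2 to 206 CPM. In HFD livers the log2 ratio at 20 weeks minus that at 7 days was -1.19 (exact permutation test, two-sided, p = 0.0286, the smallest that 4 against 4 mice allow, and 0.114 when adjusted over the 4 comparisons). Without mouse 143 this difference was -1.43 (exact permutation test, p = 0.0571, the smallest that 4 against 3 mice allow, adjusted 0.114). For FEN-HFD against HFD at 20 weeks the difference was 0.67 (exact permutation test, p = 0.0571, adjusted 0.114), with 3 of the 4 FEN-HFD mice above all HFD mice. At 7 days it was -0.24 (exact permutation test, p = 0.543, adjusted 0.543), and for FEN-HFD at 20 weeks against 7 days it was -0.28 (exact permutation test, p = 0.343, adjusted 0.457). Without mouse 143 the 7-day difference was -0.49 (exact permutation test, p = 0.171). Without mouse 29 the FEN-HFD difference between durations was -0.07 (exact permutation test, p = 0.686). That for FEN-HFD against HFD at 20 weeks was then 0.87 (exact permutation test, p = 0.0571, the smallest that 3 against 4 mice allow). The ratio was examined after its values had been seen. How reads were divided between the copies is not given in the sources used here, and its part in the ratio was not tested.

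The share of Orm2 among the Orm counts also varied between mice. Orm2 made up 3.46%, 1.52%, 2.002% and 11.1% of the counts of Orm1, Orm2 and Orm3 in FEN-HFD livers at 20 weeks, against 4.83%, 7.17%, 3.23% and 2.07% in HFD livers. At 7 days its share was 1.23%, 1.27%, 1.26% and 1.63% in FEN-HFD livers, against 1.19%, 3.10%, 1.02% and 1.57% in HFD livers. The share was highest in mouse 29, in which Orm1 was at 942 CPM and Orm2 at 119 CPM. No test was made on the Orm2 share.

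**Figure D3:**
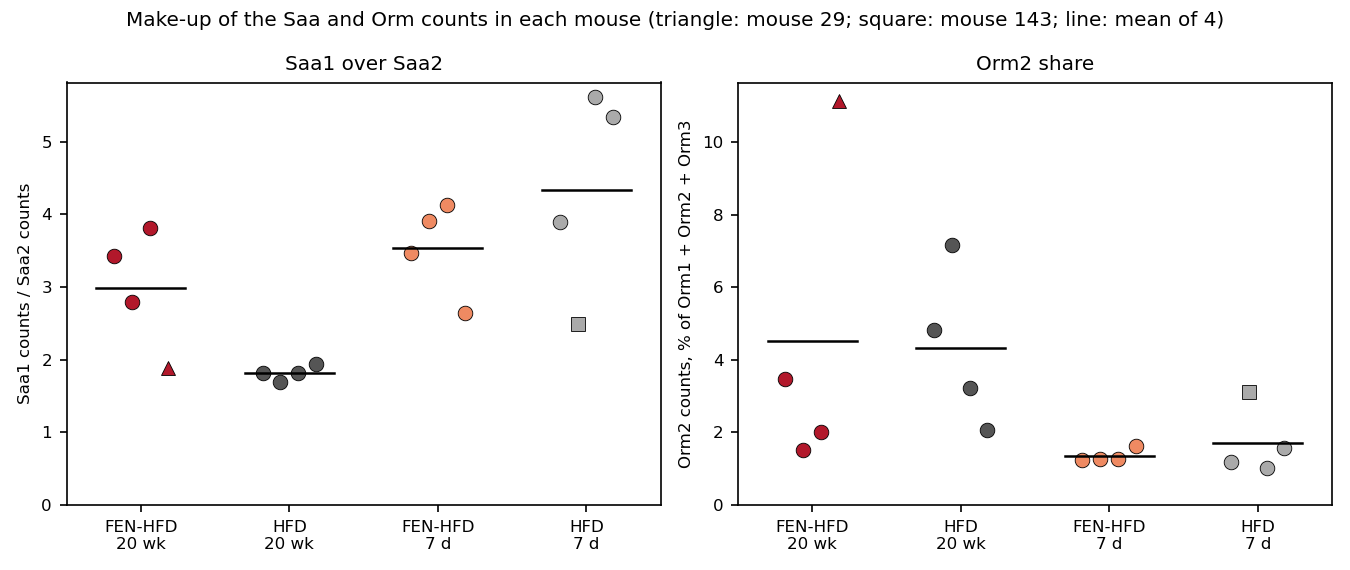
Ratio of Saa1 to Saa2 counts (left) and Orm2 as a percentage of Orm1, Orm2 and Orm3 counts (right) in each mouse, with a line at the mean of 4 mice and axes that start at 0. The HFD mice at 20 weeks lie between 1.69 and 1.94 in the Saa ratio, and mouse 29 has the highest Orm2 share, 11.1%.

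The members were also compared with each other across the 16 mice, on log2(CPM + 1). These correlations are descriptions. The points share libraries and scaling factors. Over 16 mice, the 36 pairs without Crp had Pearson's r between 0.44 and 0.96 (median 0.71), and the 9 pairs with Crp had r between -0.41 and 0.09. Without mouse 29, r ran from -0.02 to 0.93 in the 36 pairs (median 0.42), with 35 above 0, and from -0.26 to 0.53 in the 9. With group means removed over all 16 mice, r was between 0.66 and 0.97 in the 36 pairs and between -0.53 and -0.15 in the 9. Lcn2 and Orm2 had r = 0.96 and Spearman's rho = 0.82 over 16 mice, r = 0.96 with group means removed and r = 0.93 without mouse 29. The genes of this pair lie on chromosomes 2 and 4. Both were higher in HFD mouse 28 at 20 weeks and in mouse 143 at 7 days than in the other mice of their groups. The relation was not seen among the low levels of FEN-HFD livers at 7 days. There mouse 62 had the highest Lcn2 level (5.09 CPM) and the lowest Orm2 level (6.77 CPM). Lcn2 and Hp had r = 0.91 and rho = 0.89, and r = 0.83 without mouse 29. Saa1 and Saa2 had r = 0.90 and rho = 0.88, and r = 0.77 without mouse 29. Saa1 and Hpx had r = 0.90 and rho = 0.85, and r = 0.78 without it. Saa3 and Hp had r = 0.44, and r = -0.02 without mouse 29.

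**Figure D4:**
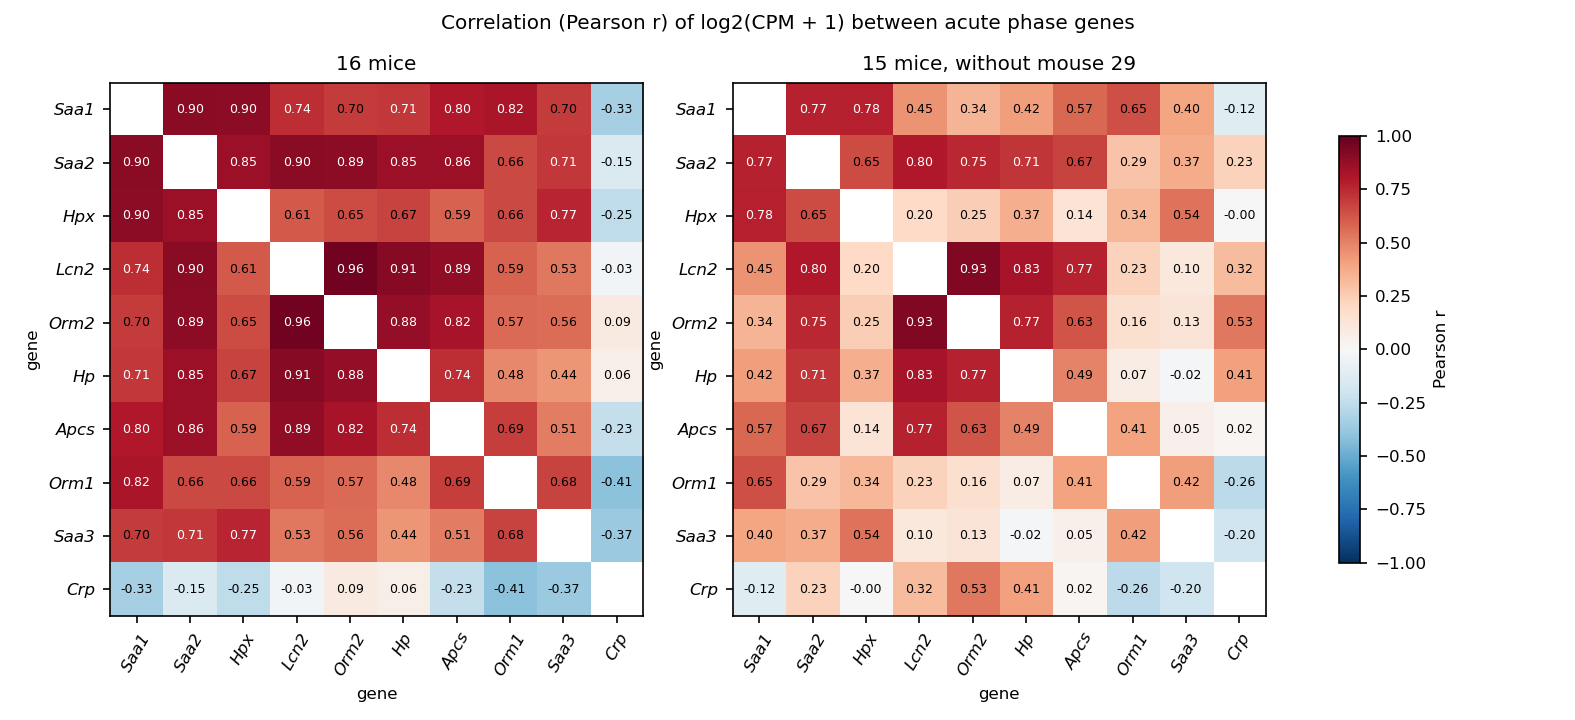
Pearson's r between members on log2(CPM + 1), over 16 mice (left) and over 15 mice without mouse 29 (right). The 36 pairs without Crp run from 0.44 to 0.96 on the left and from -0.02 to 0.93 on the right, where Lcn2 and Orm2 have 0.93.

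**Figure D5:**
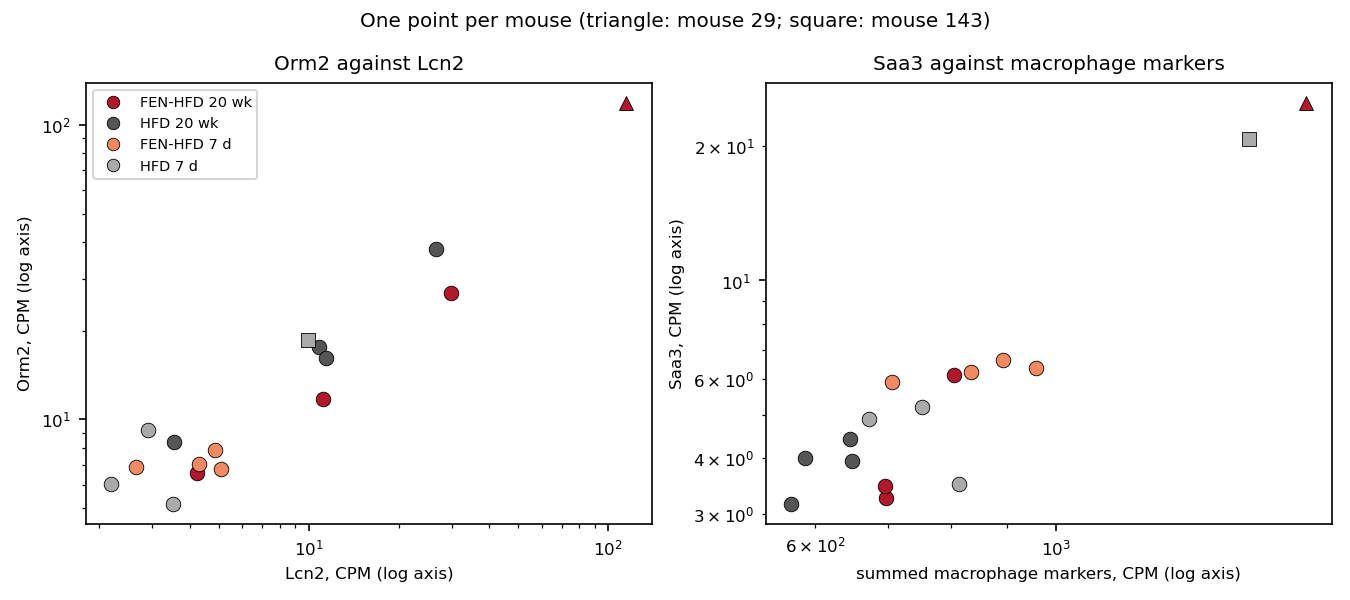
Orm2 against Lcn2 (left) and Saa3 against the summed level of 15 macrophage markers (right) in CPM on log axes, with 1 point per mouse. Lcn2 and Orm2 are high in the same mice, whereas Saa3 exceeds 20 CPM only in mice 29 and 143, with 1697 and 1505 CPM of macrophage markers.

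Among 9469 genes that averaged 5 CPM or more, the 2 genes most like each member over the 16 mice were found by Pearson's r, with no test. Mouse 29 had the highest level of every member but Crp, and Saa3 was high only in mice 29 and 143. The search was not repeated without these mice, so the r values can rest on them. Tgm2, which encodes a transglutaminase, was the closest to Lcn2 (r = 0.93), Orm2 (r = 0.92) and Saa2 (r = 0.88). Ifitm1 followed for Saa2 (r = 0.88), Galns, a lysosomal sulfatase gene, for Lcn2 (r = 0.91) and the TNF receptor gene Tnfrsf1a for Orm2 (r = 0.89). Saa3 was closest to Lcp2 (r = 0.96), an adaptor of blood cells, and to Nlrc5 (r = 0.96), which drives MHC class I genes. Orm1 was closest to Fgl1 (r = 0.91), a fibrinogen-like protein of hepatocytes, and to the ribosomal protein gene Rps20 (r = 0.86). Bin3 was the closest to Saa1 (r = 0.85) and Hpx (r = 0.90), with C4b (r = 0.84) and AF251705 (r = 0.89) next. Hp was closest to Jak3 (r = 0.88) and Ier5 (r = 0.85), and Apcs to Galns (r = 0.85) and Alpk1 (r = 0.84). Crp was closest to Maob (r = 0.94), a monoamine oxidase gene, and to Leap2 (r = 0.87), a peptide hormone of liver.

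The wider pathway was read from lists of other genes. Of the ligands, 3 of 10 genes passed the filter on low counts (Il1a, Il1b and Tnf), and Il6 did not. None was called for FEN-HFD against HFD at either duration. Il1b, which encodes interleukin 1 beta, rose in FEN-HFD livers at 20 weeks against 7 days, with 4.83, 5.83, 3.06 and 6.97 CPM at 20 weeks, against 1.97, 2.32, 2.04 and 1.497 CPM at 7 days. The groups did not overlap, and the log2 fold change was 1.37 (SE 0.25, edgeR adjusted p = 0.0290), with 1.22 without mouse 29 (edgeR adjusted p = 0.0118). In HFD livers the Il1b estimate between the durations was 0.27 (edgeR adjusted p = 0.696), and the difference of fenretinide effects was not called (1.10, edgeR adjusted p = 0.531).

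Of 12 receptor genes, 1 fell and 0 rose in FEN-HFD against HFD livers at 20 weeks. Of all genes, 1.09% were called lower and 0.769% higher. Il22ra1, a subunit of the interleukin 22 receptor, had 2.73, 1.996, 0.90 and 1.25 CPM in FEN-HFD livers, against 9.28, 6.04, 4.94 and 5.78 CPM in HFD livers (log2 fold change -1.87, edgeR adjusted p = 0.0270). At 7 days 0 of 12 receptors were called. In HFD livers, at 20 weeks against 7 days, 2 of 12 fell, where 2.73% of all genes were called lower. Lifr, the receptor of leukaemia inhibitory factor, had 197, 179, 274 and 356 CPM at 20 weeks, against 1027, 667, 876 and 669 CPM at 7 days (log2 fold change -1.70, edgeR adjusted p = 0.00447). For the interleukin 1 receptor gene Il1r1 the estimate was -1.35 (edgeR adjusted p = 0.0143). Lifr also fell in FEN-HFD livers between these durations (log2 fold change -0.89, edgeR adjusted p = 0.0265). Among 24 signalling genes and transcription factors, 0 were called in any of the 5 comparisons with all mice. Without mouse 143, Fos, which encodes a subunit of AP-1, was called higher in HFD livers at 20 weeks against 7 days (1.45, edgeR adjusted p = 0.0450), against 1.25 with all mice (edgeR adjusted p = 0.0523). At an unadjusted p under 0.05, 2 were higher and 1 lower for FEN-HFD against HFD at 20 weeks, and 0 were higher and 1 lower at 7 days. The smallest p for FEN-HFD against HFD at 20 weeks belonged to Cebpa, which encodes C/EBP alpha (-0.37, edgeR adjusted p = 0.0996), and to the NF-kB cofactor gene Nfkbiz (0.43, edgeR adjusted p = 0.155).

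Of 29 other positive acute phase genes tested at 20 weeks, 0 rose and 1 fell in FEN-HFD against HFD livers, and 16 were higher and 3 lower at an unadjusted p under 0.05. Among all genes the called shares were 0.769% higher and 1.09% lower. The shares that passed the unadjusted p were 8.50% higher and 10% lower. The median log2 fold change of the list was 0.61, and without mouse 29 it was 0.36. Then 12 of 30 were higher at that p, where 10.3% of all genes were higher. Mbl1, a mannose-binding lectin gene, was called higher without mouse 29. Hamp2, a hepcidin gene close in sequence to Hamp, had 1.53, 1.88, 1.21 and 1.66 CPM in FEN-HFD livers, against 7.88, 5.64, 4.35 and 7.55 CPM in HFD livers (log2 fold change -2.01, edgeR adjusted p = 0.00586). At 7 days 0 of 30 passed, and the median was 0.02. In HFD livers, at 20 weeks against 7 days, edgeR called 2.73% of all genes lower and 4.78% higher. Of this list, 6 of 30 fell and 0 rose. They included the 3 fibrinogen chain genes Fga (-0.60, edgeR adjusted p = 0.0363), Fgb (-0.69, adjusted p = 0.0384) and Fgg (-0.61, adjusted p = 0.0373), and the protease inhibitor gene Serpina1a (-0.75, adjusted p = 0.0208). Fgb had 3019, 2599, 3916 and 3780 CPM at 20 weeks, against 5743, 4855, 6305 and 4350 CPM at 7 days. Without mouse 143, 5 of 30 fell, these 4 genes among them. In FEN-HFD livers the same comparison gave 0 genes higher and 2 lower of 30, Hamp (-1.55, edgeR adjusted p = 0.000176) and Hamp2 (-1.75, edgeR adjusted p = 0.0446). Of all genes, 0.849% were called higher and 0.332% lower there. Without mouse 29, Hamp2 missed the threshold (edgeR adjusted p = 0.0556) and 2 of 30 were called higher, Orm3 (1.28, edgeR adjusted p = 0.0331) and Mbl2 (0.45, edgeR adjusted p = 0.0395), and 2 lower, Hamp and Serpina1a (-0.40, edgeR adjusted p = 0.0489). Fgb there had 5680, 4523, 5455 and 6819 CPM at 20 weeks, against 5593, 5925, 5333 and 4797 CPM at 7 days (0.04, edgeR adjusted p = 0.980). The difference of the fenretinide effects was not called for any of these 30 genes.

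Of 12 negative acute phase genes, 1 rose and 0 fell in FEN-HFD against HFD livers at 20 weeks. Of all genes, 0.769% were called higher and 1.09% lower. Without mouse 29, Alb, which encodes albumin, was called lower (-0.68, edgeR adjusted p = 0.0325), against -0.56 with all mice (edgeR adjusted p = 0.128). Fetub, which encodes fetuin B, had 279, 239, 282 and 295 CPM in FEN-HFD livers, against 150, 132, 191 and 181 CPM in HFD livers (log2 fold change 0.75, edgeR adjusted p = 0.0270). At 7 days 0 of 12 were called. In HFD livers 3 of 12 fell at 20 weeks against 7 days, where 2.73% of all genes were called lower. They were Apoa1 (-0.83, edgeR adjusted p = 0.0100), the main apolipoprotein of high-density lipoprotein, Ahsg (-1.07, adjusted p = 0.0106), which encodes fetuin A, and Fetub (-0.70, adjusted p = 0.0206). In FEN-HFD livers 0 of 12 were called for duration, and without mouse 29 Ahsg was called lower (-0.58, edgeR adjusted p = 0.0134).

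Proteins that bind or clear the members formed a list of 15 genes, of which 13 were tested. Mmp9, a gelatinase that forms a complex with lipocalin 2, rose with fenretinide at both durations. It had 2.96, 2.27, 2.01 and 6.24 CPM in FEN-HFD livers at 20 weeks, against 0.49, 0.62, 0.85 and 0.93 CPM in HFD livers. At 7 days there were 2.80, 3.44, 3.004 and 4.05 CPM in FEN-HFD livers, against 0.60, 1.30, 0.52 and 1.11 CPM in HFD livers. The groups did not overlap at either duration, and the log2 fold changes were 2.17 (edgeR adjusted p = 0.0293) and 1.92 (edgeR adjusted p = 0.0411). Mmp9 is also a neutrophil marker in the lists used here, and S100a9, another of them, was not called at 20 weeks (1.10, edgeR adjusted p = 0.489). At 7 days the summed neutrophil markers were 8.48 to 10.1 CPM in FEN-HFD livers. HFD mouse 143 had 12.2 CPM, and the other HFD mice had 4.20 to 5.06 CPM. Among 5 neutrophil markers tested at 7 days, 4 had estimates above 0 (median log2 fold change 0.04). Without mouse 143 all 5 did (median 0.73). At 20 weeks 4 of 4 did (median 0.91), and without mouse 29 only 1 of 4 (median -0.08). The part of neutrophils in the Mmp9 level was not tested. Cd36, a scavenger receptor that binds serum amyloid A, fell in FEN-HFD against HFD livers at 20 weeks (-1.35, edgeR adjusted p = 0.0255), and without mouse 29 it missed the threshold (-1.33, edgeR adjusted p = 0.0523). Its level was higher at 20 weeks than at 7 days in HFD livers (2.49, edgeR adjusted p = 0.00228) and in FEN-HFD livers (1.37, edgeR adjusted p = 0.000176). Without mouse 29, Hmox1, a haem oxygenase gene of this list, was also called higher in FEN-HFD livers for duration (0.49, edgeR adjusted p = 0.0493). Among macrophage markers, Marco, a scavenger receptor of Kupffer cells, rose at 20 weeks, with 31.9, 52.4, 42.0 and 116 CPM in FEN-HFD livers, against 9.81, 9.20, 15.3 and 15.8 CPM in HFD livers (log2 fold change 2.26, edgeR adjusted p = 0.0357). Without mouse 29 it remained called (1.75, edgeR adjusted p = 0.0178). It was the only one of the 14 macrophage markers tested that passed in this comparison, and its part in the levels of the members was not tested. Of 9 stellate cell and fibroblast markers, only Lrat, a retinol esterifying enzyme gene, rose with fenretinide, at both durations. Without mouse 29, Col1a1, a collagen gene of that list, was called lower at 20 weeks (-2.22, edgeR adjusted p = 0.0216). Of the 3 adipocyte markers tested, out of 7 listed, Cfd rose in FEN-HFD against HFD livers at 20 weeks (2.81, edgeR adjusted p = 0.0380). Without mouse 29 it missed the threshold (2.43, edgeR adjusted p = 0.0708). None of 7 endothelial and 5 cholangiocyte markers was called in those comparisons, with or without mice 29 and 143.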

How the data were processed

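Liver RNA of 16 mice was sequenced as total RNA after ribosomal RNA depletion, per the labels with a stranded kit. The authors aligned reads to mm10 with STAR 2.0 and deposited raw counts per gene for 23420 genes; the submitters' notes also name DESeq2 1.6. The counting program, its annotation and its strand setting are not given in the sources used here. Counts were tested as deposited. Groups came from the labels.

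For each comparison of 2 groups of 4, genes were filtered with filterByExpr (minimum count 10), scaled by TMM and tested with edgeR 4.0.16 (quasi-likelihood, robust) in R 4.3.3, with Benjamini-Hochberg adjustment over all genes tested and a threshold of 0.05. The difference of effects was fitted over 16 libraries. The test was checked on simulated data. Alternatives were DESeq2 1.42.0, limma-voom (limma 3.58.1) with sample weights, RLE scaling, no filter, at least 10 counts in every library, removal of Rn45s and Lars2, summed paralogs, 1 fit of all libraries and leaving out each mouse. Nothing says how the mice of a group were housed, so p-values measure the spread between these samples.

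All members are named. Of each pathway list up to 4 genes are named per comparison, those with the smallest p that passed, or up to 2 where none passed; S100a9, and Fgb in FEN-HFD livers, were added after their values were seen. The members and lists were chosen with earlier results of these data known. Levels per kilobase used CCDS transcripts of GENCODE M21.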

Additional observations from a re-analysis of the deposited data

Results flagged for a closer look

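Of the 40 groups of 4 mice (10 genes in 4 groups), 4 held a mouse whose gap to the nearest of the others, as a share of the range of the group, exceeded Dixon's 95% critical value for 4 samples. For normally distributed values chance gives such a gap in about 1 of 20 groups. Levels in CPM need not be so distributed, and the genes are not independent. Saa2 was at 631 CPM in FEN-HFD mouse 29 at 20 weeks, against 15.7 to 73.3 CPM in the other 3 mice of that group. Saa3 was at 25.1 CPM in the same mouse, against 3.25 to 6.14 CPM in the other 3. In HFD livers at 7 days, mouse 143 had 20.8 CPM of Saa3, against 3.503 to 5.19 CPM in the other 3, and 9.95 CPM of Lcn2, against 2.19 to 3.51 CPM in the other 3. Macrophage markers were highest in these 2 mice (1697 and 1505 CPM), and the ribosomal RNA precursor took 53.1% of the counts of mouse 29. The part of either in these levels was not tested.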

How the results depend on the processing

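No paired analysis was possible because the groups compared share no mouse number. Over all alternatives, 837 log2 fold changes of members kept their direction and their side of the threshold, 41 changed sign and 2 newly passed; the cause was not tested. DESeq2 called 1 member higher for FEN-HFD at 20 weeks against 7 days, Lcn2 (3.22). Leaving out 1 mouse at a time gave 0 to 1 members called higher for HFD at 20 weeks against 7 days. With limma-voom, which weights libraries by quality, the FEN-HFD against HFD values at 20 weeks changed sign for Saa2 (-0.054), Orm2 (-0.23), Hp (-0.023) and Hpx (-0.044), and at 7 days for Saa2 (0.22), Saa3 (0.27) and Lcn2 (0.57). It did so for FEN-HFD at 20 weeks against 7 days for Saa3 (-0.52) and Hpx (-0.13), and for the difference of effects for Saa2 (-0.36), Saa3 (-0.024), Lcn2 (-0.35), Orm2 (-0.27), Hp (-0.028), Crp (0.016) and Apcs (-0.22). With paralog counts summed, the HFD values at 20 weeks against 7 days were -0.35 for Saa1 and Saa2 together and -0.31 for the Orm genes together, below 0 where Saa2 and Orm2 alone were above 0. With mice 29 and 143 both left out, an alternative chosen after seeing the data, the difference of effects changed sign for Saa2 (-0.42), Saa3 (-0.33), Lcn2 (-0.35), Orm2 (-0.49) and Apcs (-0.21).

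Leaving out 1 mouse at a time, the FEN-HFD against HFD values at 20 weeks ran from -0.43 to 2.25 for Saa2, -0.40 to 1.501 for Orm2, -0.086 to 0.38 for Hp and -0.19 to 0.52 for Hpx. At 7 days they ran from -0.71 to 0.47 for Saa3, -0.38 to 0.55 for Lcn2, -0.076 to 0.014 for Orm1 and -0.65 to 0.077 for Orm2. For FEN-HFD at 20 weeks against 7 days they ran from -0.56 to 0.80 for Saa3 and -0.16 to 0.56 for Hpx. The difference of effects ran from -0.10 to 2.58 for Saa2, -0.081 to 0.044 for Crp and -0.16 to 0.53 for Apcs.

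Over all genes, edgeR called 242 for FEN-HFD against HFD at 20 weeks, DESeq2 993, limma-voom 1128 and the fit of all libraries 661, and 36 to 424 were called without 1 mouse. At 7 days edgeR called 13, DESeq2 89, limma-voom 29 and edgeR without a filter 20, and 7 to 18 without 1 mouse. For HFD at 20 weeks against 7 days the counts were 996 and, by DESeq2, 1742, and 468 to 938 without 1 mouse. For FEN-HFD they were 153, 412 by DESeq2 and 892 by limma-voom, and 57 to 486 without 1 mouse. The difference of effects gave 4, DESeq2 115, limma-voom 90 and 0 to 14 without 1 mouse, and 7 without mice 29 and 143. Over RLE scaling and removal of Rn45s and Lars2 together, 3 of 80 mean levels moved by more than 1 SD. All 3 moved on removal of Rn45s and Lars2, in FEN-HFD livers at 7 days (Saa3 6.72, Orm2 7.63 and Crp 139 CPM).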
